A study of Mus musculus with 58 samples.

Results

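Usp2, Cys1 and Plekhb1, 3 genes known as outputs of the retinal clock, were followed across the day in control and diabetic mouse retina. They were taken by gene symbol from the 52459 genes of the count table. All 3 passed the filter of a median above 4 normalized counts (reads divided by a library's size factor), as did 19120 genes in all. RNA was sequenced from 58 retina libraries, 30 of control and 28 of diabetic mice, at ZT1, ZT5, ZT9, ZT13, ZT17 and ZT21, where zeitgeber time (ZT) counts the hours after lights on and lights go off after 12 h. In that order of time points there were 5, 6, 5, 5, 5 and 4 control libraries, and 5, 5, 5, 4, 4 and 5 diabetic libraries. Diabetic mice were heterozygous Ins2Akita males with lasting hyperglycemia, which carry a mutated insulin gene that harms the beta cells of the pancreas. Controls were wild type male littermates that lacked this phenotype. Both groups were of C57Bl6 background, 4 months old, kept in 12 h of light and 12 h of dark, and perfused with PBS before the retina was removed, under dim red light during the night. The mice lived in a light cycle and each was sampled at 1 time point, so that a rhythm driven by light and a rhythm driven by a clock cannot be told apart in these profiles. In whole retina, fewer cells of a type and less RNA per cell cannot be told apart either.

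The molecular clock is a loop in which the activators CLOCK and BMAL1 switch on the genes of their own repressors, the PER and CRY proteins. The same activators, the ROR and REV-ERB receptors and the D-box factors also drive output genes that carry time of day into the physiology of the cell. Usp2 encodes ubiquitin-specific peptidase 2, a deubiquitinase that removes ubiquitin from proteins, among them clock proteins and cyclin D1, and it is rhythmic in many tissues. Cys1 encodes cystin 1, a lipid-anchored protein of the primary cilium whose loss causes polycystic kidneys in the mouse. Plekhb1 encodes evectin 1, a small membrane protein with a pleckstrin homology domain that is abundant in photoreceptors, the cells whose light-sensing outer segment is itself a modified cilium.

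In the mouse genome, build GRCm38, Usp2 (ENSMUSG00000032010) lies on the plus strand at chr9:44067021-44095627, Cys1 (ENSMUSG00000062563) on the minus strand at chr12:24665833-24681813 and Plekhb1 (ENSMUSG00000030701) on the minus strand at chr7:100642892-100662414. The annotation gives them 9, 8 and 12 transcripts with 4818, 2952 and 3713 exon bases. A stretch around a transcription start from RefSeq is given here for each gene, 5′ to 3′ on the gene's own strand, because clock factors act on such sequence. Capitals mark the matches to the motifs searched. The Usp2 stretch, chr9:44084670-44084920 on the plus strand, ends at a start inside the gene. The Cys1 stretch is chr12:24681814-24682045 on the minus strand and ends where the gene's annotated exons begin. The Plekhb1 stretch, chr7:100662387-100662644 on the minus strand, holds 28 exon bases. A shorter Plekhb1 stretch at a start inside the gene, chr7:100657104-100657215 with a GC content of 37.5%, held none of the searched letters and is not printed.
Usp2: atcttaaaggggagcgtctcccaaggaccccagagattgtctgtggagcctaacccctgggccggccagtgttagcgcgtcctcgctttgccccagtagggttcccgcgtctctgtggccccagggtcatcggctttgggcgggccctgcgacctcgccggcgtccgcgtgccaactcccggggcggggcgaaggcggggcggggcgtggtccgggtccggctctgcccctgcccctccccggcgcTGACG
Cys1: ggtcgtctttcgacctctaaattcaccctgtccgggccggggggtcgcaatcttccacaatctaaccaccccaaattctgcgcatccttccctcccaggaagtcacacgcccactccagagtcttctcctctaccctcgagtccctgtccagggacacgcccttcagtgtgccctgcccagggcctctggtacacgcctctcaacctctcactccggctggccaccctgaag
Plekhb1: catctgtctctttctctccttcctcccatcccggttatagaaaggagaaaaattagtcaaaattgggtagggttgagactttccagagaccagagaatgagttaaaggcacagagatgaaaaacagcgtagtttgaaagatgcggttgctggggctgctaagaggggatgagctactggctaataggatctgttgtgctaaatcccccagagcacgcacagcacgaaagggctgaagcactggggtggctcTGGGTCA
The letters searched, on both strands, were CACGTG (E-box), CACGTT (E-box variant), TTATGTAA or TTACGTAA (D-box), TAGGTCA or TGGGTCA (ROR element), TGACGTCA (cyclic AMP response element, CRE), its core TGACG, which every full CRE also holds, and TAATCC (site of the photoreceptor factor CRX). Plekhb1 held a ROR element at bases 2 to 8 after the start, as did 6.45% of all 32851 RefSeq windows, which are 300 bases long. Usp2 held the CRE core from base -4 to base 1, as did 20.8% of the windows. No searched letters were found in the Cys1 stretch. The E-box was found in 7.15%, its variant in 4.68%, the D-box in 1.06%, the full CRE in 1.79% and the CRX site in 7.06% of all windows, and in none of these 3 stretches. GC content was 71.7% for Usp2, 60.8% for Cys1 and 48.8% for Plekhb1, against a median of 52.7% over all windows. These matches describe letters only, and the stretches printed are shorter than the windows counted.

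Libraries held 7773117 to 22147398 counted reads, and those of ZT17 were among the deepest, with 15656408 to 19929725 in control and 18193309 to 20301393 in diabetic retinas. All 7 rod markers were detected, at a summed level of 541620 to 780960 normalized counts in control and 511700 to 714840 in diabetic libraries. Lens transcripts stood at sums of 18728 to 27222 in 3 control libraries (ZT1 replicate 6, ZT17 replicate 5 and ZT21 replicate 2). At ZT9, replicates 4 and 5 of both genotypes stood above the other 3 in Usp2, Cys1 and Plekhb1. Some of the results are also given without the 3 lens libraries or without the 4 ZT9 libraries.

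Usp2 had 1240 to 4827 reads in a library, Cys1 97 to 372 and Plekhb1 4525 to 21334, so that counting error weighed most on Cys1. Per 1000 exon bases the mean level over control libraries was 522 normalized counts for Usp2, 68.1 for Cys1 and 2959 for Plekhb1. Per length, Plekhb1 was thus the most abundant of the 3 and Cys1 the least in control retinas. In diabetic libraries the means per 1000 exon bases were 579, 60.8 and 2988, in the same order of genes.

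**Figure D1:**
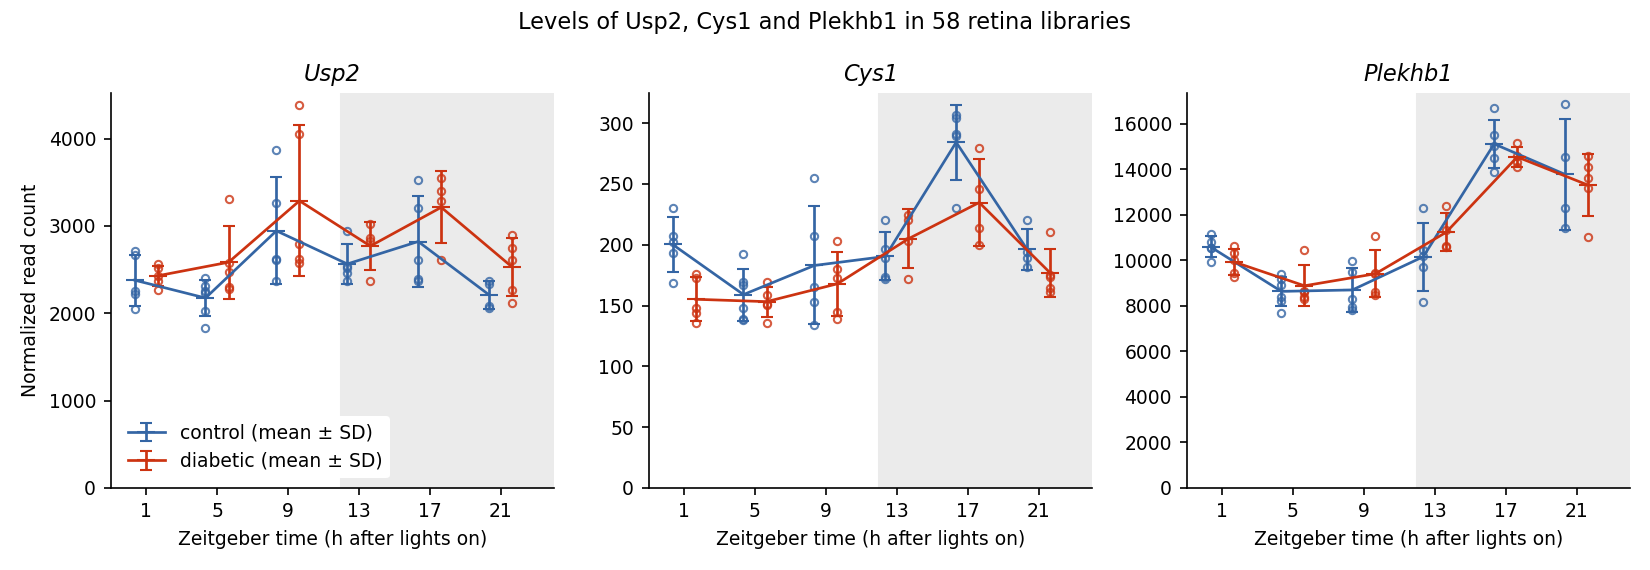
Normalized counts of Usp2, Cys1 and Plekhb1 (y axis, from 0) against zeitgeber time in hours (x axis) in control and diabetic retinas. Each point is 1 library, the bars give the mean and SD of each group, and shading marks the dark hours. Plekhb1 stands lowest at ZT5 and highest at ZT17 in both genotypes, with means of 8631.5 and 15110 in control retinas, while the Usp2 groups overlap at most time points.

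Usp2 was highest in the late day and the first part of the night. Its control libraries held 1835 to 2401 normalized counts at ZT5 with a median of 2240.5, and 2366, 2605, 2625, 3263 and 3865 at ZT9. At ZT13 they held 2365, 2462, 2515, 2536 and 2948, and at ZT17 2373, 2398, 2609, 3203 and 3525. At ZT21 the values were 2057, 2085, 2332 and 2367, and at ZT1 they were 2045, 2216, 2257, 2662 and 2715. The mean was 2175 ± 208 (SD, n = 6) at ZT5 and 2945 ± 612 (SD, n = 5) at ZT9, and the lowest ZT9 library lay below the highest ZT5 library. From highest to lowest the means came in the order ZT9, ZT17, ZT13, ZT1, ZT21 and ZT5, and no neighbours in this order differed by more than the larger SD of the pair.

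In diabetic retinas Usp2 stood at 2574, 2625, 2796, 4056 and 4389.9 at ZT9, and at 2372, 2829.9, 2857 and 3021 at ZT13. At ZT17 it stood at 2615, 3292, 3404 and 3545, and at ZT21 at 2114, 2272, 2614, 2746 and 2902. It stood at 2268, 2371, 2426, 2518 and 2562 at ZT1 and at 2274, 2305, 2468, 2572 and 3304 at ZT5, and its lowest library was 1 of ZT21. The highest mean was again that of ZT9, 3288 ± 865 (SD, n = 5), followed by ZT17 with 3214 ± 413 (SD, n = 4), and the lowest was that of ZT1 with 2429 ± 117 (SD, n = 5). The libraries of ZT9 all lay above those of ZT1. Among neighbours in the order of means, ZT17 exceeded ZT13 by more than the larger SD, with overlapping ranges, and the others did not differ by that much.

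Rhythm was tested with JTK_CYCLE, a rank test against 24 h waveforms, and a gene was called rhythmic at an unadjusted permutation p under 0.05 with the highest library more than 25% above the lowest. By this rule 21.8% of the genes tested were called in control and 23.9% in diabetic retinas, and Usp2, Cys1 and Plekhb1 were called in both genotypes. The Usp2 call was lost in control retinas without ZT5 (permutation p = 0.0519) and in diabetic retinas without ZT1 (0.0962) or ZT17 (0.0517). For Usp2 the permutation p was 0.0128 (adjusted over all genes 0.0979) in control and 0.0095 (adjusted 0.0728) in diabetic retinas. Usp2 was therefore not among the 8.25% and 9.78% of genes that kept an adjusted p under 0.05. A fitted 24 h cosine put its acrophase, the time of the peak, at 12.9 ± 1.40 h (SE, n = 30) after lights on in control and 12.4 ± 1.39 h (SE, n = 28) in diabetic retinas. This fitted peak lay near ZT13, where the means (2565 in control and 2770 in diabetic retinas) were below those of ZT9 and ZT17. The relative amplitude, the cosine's height over its mean level, was 11.7 ± 4.30% and 13.1 ± 4.78%. With 1 time point left out it ranged from 9.92% (without ZT5) to 17.6% (without ZT13) in control and from 10.3% (without ZT9) to 20.4% (without ZT13) in diabetic retinas.

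The Usp2 peak rested in part on the ZT9 libraries that stood apart. Replicates 4 and 5 held 3263 to 3865 normalized counts in control retinas, where the other 3 held 2366 to 2625, and 4056 to 4389.9 against 2574 to 2796 in diabetic retinas. The same libraries were high in Cys1, at 207 to 255 against 134 to 165 in control and 179.7 to 203 against 139 to 173 in diabetic retinas. In Plekhb1 they held 9464 to 9945 against 7811 to 8316 in control, and 9449 to 11066 against 8491 to 9412 in diabetic retinas. Without these 4 libraries the Usp2 permutation p stood at 0.0203 (control) and 0.00765 (diabetic), and the acrophase moved to 14.98 h and 14.7 h. With 1 time point left out it ranged from 10.8 h (without ZT5) to 15.5 h (without ZT9) in control and from 10.7 h (without ZT17) to 14.4 h (without ZT9) in diabetic retinas. What sets these libraries apart was not tested.

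No step of Usp2 between neighbouring time points passed the test of edgeR, a count model fitted across all genes (adjusted p under 0.05), which called 0% to 3.32% of all genes over the 6 steps in control and 0.0105% to 2.79% in diabetic retinas. Its change from ZT5 to ZT9 was 0.44 ± 0.12 on the log2 scale (SE, edgeR adjusted p = 0.276) in control and 0.34 ± 0.13 (adjusted p = 0.890) in diabetic retinas, in steps that called 0.0837% and 0.162% of all genes. With 1 library left out these changes ranged from 0.32 to 0.51 and from 0.22 to 0.45, and without the 4 ZT9 libraries they were 0.22 and 0.043. With the replicate number added to the fit, the control change passed, at 0.45 (edgeR adjusted p = 0.0405), and the diabetic change did not, at 0.33 (adjusted p = 0.435). From ZT9 to ZT13, where 0.126% and 0.173% of genes were called, the Usp2 difference was -0.21 (control) and -0.25 (diabetic), with edgeR adjusted p = 0.999 and 0.684. With 1 library left out it ranged from -0.27 to -0.091 in control and from -0.32 to -0.12 in diabetic retinas, and without the 4 ZT9 libraries it turned to 0.0094 and 0.053. From ZT13 to ZT17 the difference was 0.14 and 0.21 (edgeR adjusted p = 0.537 and 0.487), with ranges of 0.046 to 0.19 and 0.15 to 0.30 when 1 library was left out. From ZT17 to ZT21 it was -0.35 in both genotypes (edgeR adjusted p = 0.807 and 0.776), and -0.44 in control retinas without the lens libraries.

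Cys1 rose at midnight. Its control libraries held 231, 289, 291, 304 and 307 normalized counts at ZT17, against 172, 173, 189, 197 and 220.3 at ZT13 and 182, 189, 194 and 220.1 at ZT21. At ZT1 they held 169, 193, 202, 208 and 230.3, at ZT5 from 138 to 193 with a median of 157, and at ZT9 134, 153, 165, 207 and 255. The ZT17 libraries were above every library of ZT1, ZT5, ZT13 and ZT21, and 1 ZT9 library reached into their range. The mean was 284 ± 31.1 (SD, n = 5) at ZT17 and 159 ± 21.4 (SD, n = 6) at ZT5. In the order of control means, ZT17, ZT1, ZT21, ZT13, ZT9 and ZT5, the first step was beyond the larger SD and no later one was.

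In diabetic retinas Cys1 stood at 199.98, 214, 246 and 279.7 at ZT17 and at 171, 203, 220.2 and 225 at ZT13. At ZT21 it stood at 161, 164, 174, 175 and 211, at ZT1 at 136, 144, 148, 173 and 176, at ZT5 at 136, 150.03, 152, 159 and 169, and at ZT9 at 139, 145, 173, 179.7 and 203. The ZT17 libraries lay above all libraries of ZT1 and ZT5 but overlapped with those of ZT13, ZT21 and ZT9. The mean was 235 ± 35.6 (SD, n = 4) at ZT17 and 153 ± 12.4 (SD, n = 5) at ZT5. In the order of diabetic means, ZT17, ZT13, ZT21, ZT9, ZT1 and ZT5, ZT13 exceeded ZT21 by more than the larger SD, with overlapping ranges, and no other neighbours did.

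The Cys1 rhythm had a permutation p of 0.00184 (adjusted 0.0281) in control and 0.000407 (adjusted 0.0104) in diabetic retinas. Its acrophase was 17.8 ± 0.837 h (SE, n = 30) in control and 15.8 ± 0.633 h (SE, n = 28) in diabetic retinas, with relative amplitudes of 21.9 ± 4.64% and 20.9 ± 3.59%. With ZT17 left out, the control p was 0.0816 and the relative amplitude 10.01% in control and 16.2% in diabetic retinas. Cys1 is rich in GC, at 60.2% of its longest transcript against a median of 49.2% over 12687 genes, so the trend that each library showed with GC content and transcript length was also removed. That correction moved single Cys1 values by -0.24 to 0.38 on the log2 scale and left relative amplitudes of 17.7% and 18.5% with acrophases of 17.5 h and 15.6 h.

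Plekhb1 means were lowest at ZT5 and ZT9 and highest at ZT17 and ZT21. Plekhb1 had the largest relative amplitude of the 3. Its control libraries held 7692 to 9408 normalized counts at ZT5 with a median of 8651, and 7811, 7938, 8316, 9464 and 9945 at ZT9. At ZT13 they held 8146, 9683, 10207, 10450.0 and 12286, and at ZT17 13888, 14476, 15015, 15496 and 16676. They held 11403, 12298, 14522 and 16867 at ZT21 and 9918, 10516, 10524, 10800.3 and 11172 at ZT1. All ZT17 libraries lay above all libraries of ZT1, ZT5, ZT9 and ZT13, and all ZT21 libraries lay above those of ZT1. The mean was 15110 ± 1062 (SD, n = 5) at ZT17 and 8631.5 ± 644 (SD, n = 6) at ZT5. In the order of control means, ZT17, ZT21, ZT1, ZT13, ZT9 and ZT5, the step from ZT21 to ZT1 was beyond the larger SD and the other neighbours were not.

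In diabetic retinas Plekhb1 stood at 14111, 14329.9, 14574 and 15139 at ZT17 and at 11031, 13158, 13630.4, 14089 and 14592 at ZT21. At ZT13 it stood at 10594, 10610.4, 11335 and 12389.6, and at ZT1 at 9254, 9446, 10006, 10323 and 10629.7. It stood at 8283, 8396, 8612, 8641 and 10459 at ZT5 and at 8491, 8609, 9412, 9449 and 11066 at ZT9. The ZT17 libraries lay above those of every time point but ZT21. The mean was 14538 ± 443 (SD, n = 4) at ZT17 and 8878 ± 896 (SD, n = 5) at ZT5. Diabetic means came in the order ZT17, ZT21, ZT13, ZT1, ZT9 and ZT5, and the steps from ZT21 to ZT13 and from ZT13 to ZT1 were beyond the larger SD, with overlapping ranges.

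For Plekhb1 the permutation p was 1e-06 in control retinas, the smallest that 1000000 shuffled series can give (adjusted 0.000298), and 2e-06 in diabetic retinas (adjusted 0.000473). The acrophase was 18.9 ± 0.413 h (SE, n = 30) and 18.0 ± 0.362 h (SE, n = 28), and the relative amplitude 29.8 ± 3.24% and 25.2 ± 2.4%. Plekhb1 also held the smallest edgeR adjusted p of the 3 for a 24 h cosine, 9.44e-13 in control and 1.36e-09 in diabetic retinas. By edgeR 12.2% of genes in control and 14.3% in diabetic retinas followed such a cosine, and of the 3 genes Cys1 and Plekhb1 did in both. The edgeR adjusted p was 8.34e-05 and 0.000537 for Cys1 and 0.0880 and 0.0513 for Usp2. For Usp2 this call turned with the fit. Among other fits, it passed in control retinas without the 4 ZT9 libraries (edgeR adjusted p = 0.0387) and in diabetic retinas by DESeq2 (0.0413) and in 17 of the 58 fits that left out 1 library. With the replicate number added to the fit it passed in control and diabetic retinas (edgeR adjusted p = 0.0399 and 0.0392). A cosine of 12 h added to that of 24 h, which would show a pair of peaks a day, was called for 0.0209% of genes in control and 0.141% in diabetic retinas and for none of the 3.

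The fitted peaks came in the order Usp2, Cys1, Plekhb1 in both genotypes. That of Usp2 fell between the higher means of ZT9 and ZT17, near the lower mean of ZT13. Cys1 followed Usp2 by 4.82 ± 1.45 h (SE, n = 30, 95% interval 1.98 to 7.67) in control and by 3.32 ± 1.39 h (SE, n = 28, 0.603 to 6.04) in diabetic retinas. The peak of Plekhb1 came 2.20 ± 0.626 h after that of Cys1 in diabetic retinas (0.971 to 3.43). In control retinas the difference between these 2 genes was 1.16 ± 0.675 h, with an interval of -0.163 to 2.48 that includes 0, so that their order was not resolved there. The fits that left out 1 library share nearly all their libraries, and all 30 in control and 28 in diabetic retinas gave the same order. Without the 4 ZT9 libraries the order was the same and the time from Usp2 to Cys1 was shorter, at 3.35 h in control and 1.34 h in diabetic retinas, while that from Cys1 to Plekhb1 was 0.74 h and 2.08 h. Intervals were not computed for these times. The 1.34 h is below the SE of 1.39 h of the full diabetic fit, so the diabetic order of Usp2 and Cys1 was not resolved there. Without the 3 lens libraries the control acrophases were 13.1 h for Usp2, 17.95 h for Cys1 and 19.1 h for Plekhb1. The fits that left out a time point also gave this order, with 2.64 to 7.08 h in control and 0.89 to 4.69 h in diabetic retinas from Usp2 to Cys1, and 0.28 to 2.17 h and 1.32 to 2.78 h from Cys1 to Plekhb1. No intervals were computed for these fits either.

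**Figure D2:**
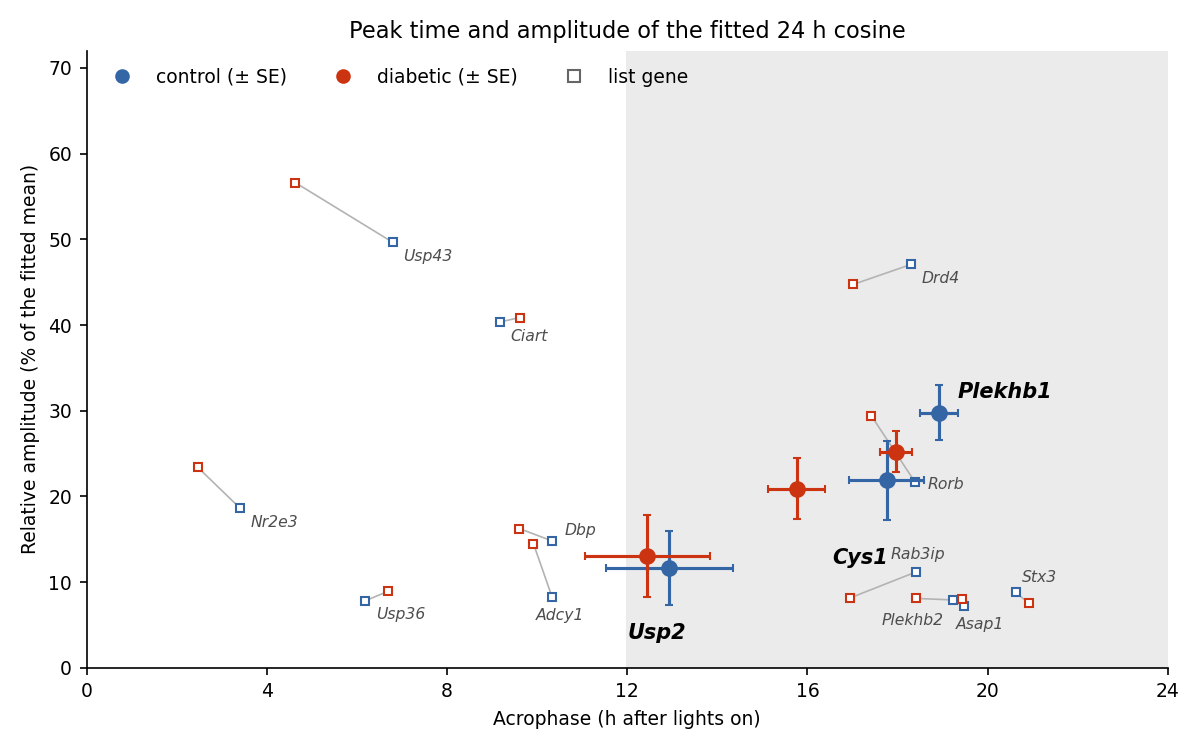
Acrophase in hours after lights on (x axis) and relative amplitude in percent (y axis) of Usp2, Cys1 and Plekhb1, with SE bars, and of the listed genes rhythmic in both genotypes, in control and diabetic retinas. Plekhb1 lies at 18.9 h and 18.0 h, with an amplitude above those of the rhodopsin transport genes and below those of Drd4, and Usp2 lies between Dbp and Cys1 in time.

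Midnight was compared with midday by the change from ZT5 to ZT17, for which edgeR called 15.1% of all genes in control retinas (7.42% higher at ZT17) and 7.36% in diabetic retinas (3.63% higher). All 3 genes were called higher at ZT17 in control retinas, and Cys1 and Plekhb1 were in diabetic retinas. Plekhb1 was higher by 0.80 ± 0.083 on the log2 scale in control (SE, edgeR adjusted p = 4.59e-10) and by 0.70 ± 0.092 in diabetic retinas (adjusted p = 3.59e-07), or 1.74-fold and 1.63-fold. Cys1 was higher by 0.84 ± 0.11 in control (edgeR adjusted p = 5.01e-07) and by 0.61 ± 0.13 in diabetic retinas (adjusted p = 0.000891), or 1.79-fold and 1.53-fold. Without the lens libraries the control differences were 0.82 for Plekhb1 and 0.84 for Cys1. In Usp2 the difference was 0.37 ± 0.12 in control (edgeR adjusted p = 0.0313) and 0.31 ± 0.13 in diabetic retinas (adjusted p = 0.158). The Usp2 call in control retinas was lost when 1 of 4 libraries was left out (ZT5 replicates 1 and 2, ZT17 replicates 1 and 3), with differences of 0.28 to 0.42 over all libraries left out, and without the lens libraries it was 0.42 (edgeR adjusted p = 0.0195). In diabetic retinas it was gained without ZT5 replicate 4, at 0.41 (edgeR adjusted p = 0.0458).

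Markers of several other retinal cells also stood higher at ZT17 than at ZT5, and others did not. The summed bipolar cell markers (5 of 5 detected) were 19666 to 21765 normalized counts at ZT5 and 23079 to 26383 at ZT17 in control retinas, and 17741 to 20777 and 21673 to 24764 in diabetic retinas, with no overlap. Müller glia markers (4 of 4 detected) were 35777 to 39771 at ZT5 and 42984 to 45618 at ZT17 in control retinas, and 33207 to 43657 and 40663 to 47828 in diabetic retinas. Pigment epithelium markers (5 of 5 detected) had medians of 934 at ZT5 and 2368 at ZT17 in control, with overlap, and of 455 and 1859 in diabetic retinas, without. Endothelial markers (4 of 4 detected) were 2157 to 2352 at ZT5 and 2483 to 2785 at ZT17 in control retinas, and overlapped in diabetic retinas at 2038.5 to 2497 and 2450.5 to 2917. Amacrine cell markers (4 of 4 detected) had medians of 8724 and 9557 in control and 8819 and 9688 in diabetic retinas, with overlap. Cone markers (5 of 5 detected) had control medians of 11877 at ZT5 and 11214 at ZT17, and diabetic ones of 10922 and 10920. Ganglion cell markers (4 of 4 detected) had medians of 6602 and 6255 in control and 7394.5 and 7255 in diabetic retinas. Microglia markers (4 of 4 detected) had medians of 241 and 262 in control and 219.8 and 261 in diabetic retinas, with overlap. Rod marker sums overlapped, with medians of 632910 and 654330 in control and 602740 and 625460 in diabetic retinas. The part of these cells in the levels of Usp2, Cys1 and Plekhb1 was not tested.

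The steps that passed the test fell in the first part of the night and across lights on, for Plekhb1 in both genotypes and for Cys1 in control retinas. From ZT13 to ZT17, where 3.32% of genes were called in control and 2.06% in diabetic retinas (1.60% and 1.05% higher), Plekhb1 rose by 0.57 ± 0.087 (SE, edgeR adjusted p = 2.07e-05) in control and by 0.37 ± 0.097 (adjusted p = 0.0318) in diabetic retinas. The diabetic call was lost in 5 fits that left out 1 library each (ZT13 replicates 1, 3 and 5 and ZT17 replicates 3 and 5), with rises of 0.34 to 0.37. Cys1 rose by 0.57 ± 0.12 (edgeR adjusted p = 0.00274) in control retinas over the same step. In diabetic retinas its change was 0.19 ± 0.13 (edgeR adjusted p = 0.511), and 0.095 to 0.26 with 1 library left out. Without the lens libraries the control rises were 0.59 for Plekhb1 and 0.56 for Cys1. The difference between the genotypes in this step alone was not tested.

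After midnight the difference in Cys1 from ZT17 to ZT21 was -0.53 ± 0.12 on the log2 scale in control (SE, edgeR adjusted p = 0.803) and -0.41 ± 0.12 in diabetic retinas (adjusted p = 0.571). It was -0.49 in control retinas without the lens libraries. In this step edgeR called 0% of genes in control retinas, with 1099 at an unadjusted p under 0.05 and 0 by DESeq2, and 0.0105% in diabetic retinas. Across lights on, from ZT21 to ZT1, Plekhb1 fell by 0.38 on the log2 scale in control (SE 0.092, edgeR adjusted p = 0.0237) and by 0.41 in diabetic retinas (SE 0.087, adjusted p = 0.00265), where 0.748% and 2.79% of genes were called (0.486% and 1.40% lower). The control call was lost in 5 fits that left out 1 library each (ZT1 replicates 3, 4 and 6, ZT21 replicates 3 and 4), and without the 3 lens libraries the change was -0.46 (edgeR adjusted p = 0.0139). Markers of some other cells also stood lower at ZT1 than at ZT21, and those of others overlapped. Pigment epithelium markers were at 2610 to 4182 at ZT21 and 408 to 1434 at ZT1 in control, and at 2486 to 3417.5 and 599 to 1216 in diabetic retinas. Bipolar cell markers were at 21745 to 25444 and 18863 to 21469 in control, and at 20651 to 22433 and 15802 to 20329 in diabetic retinas. Rod marker sums overlapped, with medians of 657690 at ZT21 and 669020 at ZT1 in control and 615570 and 591880 in diabetic retinas. Cone markers overlapped as well, with medians of 11732 and 11700 in control and 11384 and 10329 in diabetic retinas. Amacrine, ganglion cell and endothelial markers overlapped in both genotypes. Müller glia markers did in control retinas only, and microglia markers in diabetic retinas only. The part of these cells in the fall of Plekhb1 was not tested. From ZT1 to ZT5 the change of Plekhb1 was -0.29 ± 0.083 in control (edgeR adjusted p = 0.0886) and -0.16 in diabetic retinas (adjusted p = 1.00), with 0.805% and 0.0209% of genes called. With the replicate number added to the fit, the control change passed, at -0.29 (edgeR adjusted p = 0.0124), and the diabetic change did not.

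**Figure D3:**
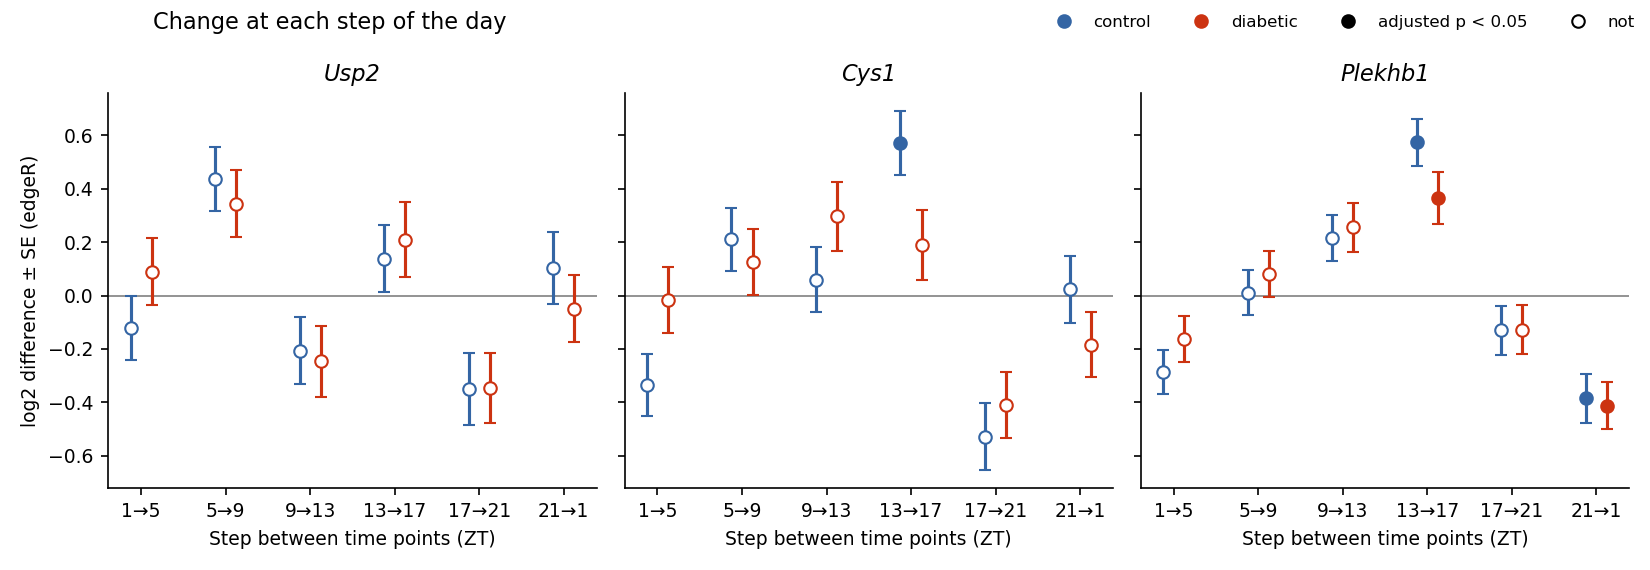
Change of Usp2, Cys1 and Plekhb1 over each 4 h step (y axis, log2 difference in edgeR ± SE) against the step (x axis) in control and diabetic retinas, with filled points where the adjusted p was under 0.05. The rise of Plekhb1 from ZT13 to ZT17 and its fall from ZT21 to ZT1 are filled in both genotypes, that of Cys1 from ZT13 to ZT17 in control retinas, and no step of Usp2 is.

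Diabetic and control retinas were compared over all time points, as the mean of the 6 diabetic groups minus that of the 6 control groups, in which edgeR called 4.64% of genes and none of the 3. Usp2 was 0.16 ± 0.053 higher on the log2 scale in diabetic retinas (SE, edgeR adjusted p = 0.0752), or 1.11-fold, and 25 of 28 diabetic libraries lay above the control median of their time point. Cys1 differed by -0.15 ± 0.050 (edgeR adjusted p = 0.0833), and 9 of 28 diabetic libraries lay above the control median. Plekhb1 differed by 0.017 with a 95% interval of -0.055 to 0.088 (edgeR adjusted p = 0.883), and 15 of 28 lay above. The Usp2 difference passed the threshold when any of 4 libraries was left out (control ZT9 replicate 4, control ZT17 replicate 3, diabetic ZT9 replicate 2 or diabetic ZT17 replicate 1), and ranged from 0.13 to 0.17. That of Cys1 passed without control ZT9 replicate 3 or diabetic ZT17 replicate 3, and ranged from -0.16 to -0.12. Without the lens libraries the Usp2 and Cys1 differences were 0.16 and -0.15, and without the 4 ZT9 libraries 0.14 and -0.12, none past the threshold. With the replicate number added to the fit, Usp2 passed, at 0.14 (edgeR adjusted p = 0.0462), and Cys1 did not, at -0.15 (adjusted p = 0.0674).

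At single time points 0.0105%, 0.0209%, 0.00523%, 0%, 0.167% and 0% of genes were called from ZT1 to ZT21 in order, and none of the 3 at any. At ZT13 and ZT21, where edgeR called 0 genes, 852 and 892 had an unadjusted p under 0.05, and DESeq2 called 1 and 2. Usp2 was higher in diabetic retinas at 6 of 6 time points, by 0.038 to 0.25 on the log2 scale. With 1 library left out its difference ranged from 0.15 to 0.29 at ZT5, from 0.030 to 0.27 at ZT9 and from 0.071 to 0.18 at ZT13. Cys1 was lower at 5 of 6, between -0.37 and 0.10, with the largest difference at ZT1 (-0.37 ± 0.12, edgeR adjusted p = 0.628). Plekhb1 was higher at 3 and lower at 3, between -0.084 and 0.15. Over the 6 time points the fits that left out 1 library spanned -0.42 to 0.18 for Cys1 and -0.13 to 0.23 for Plekhb1. The sign turned when 1 library was left out for Usp2 at ZT1 (to -0.0145), for Cys1 at ZT5 (to 0.0061) and ZT9 (to 0.0028) and for Plekhb1 at ZT5 and ZT21, and without the 4 ZT9 libraries for Cys1 at ZT9 (to 0.0076). For each of the 3 genes the ranges of diabetic and control libraries overlapped at all 6 time points.

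**Figure D4:**
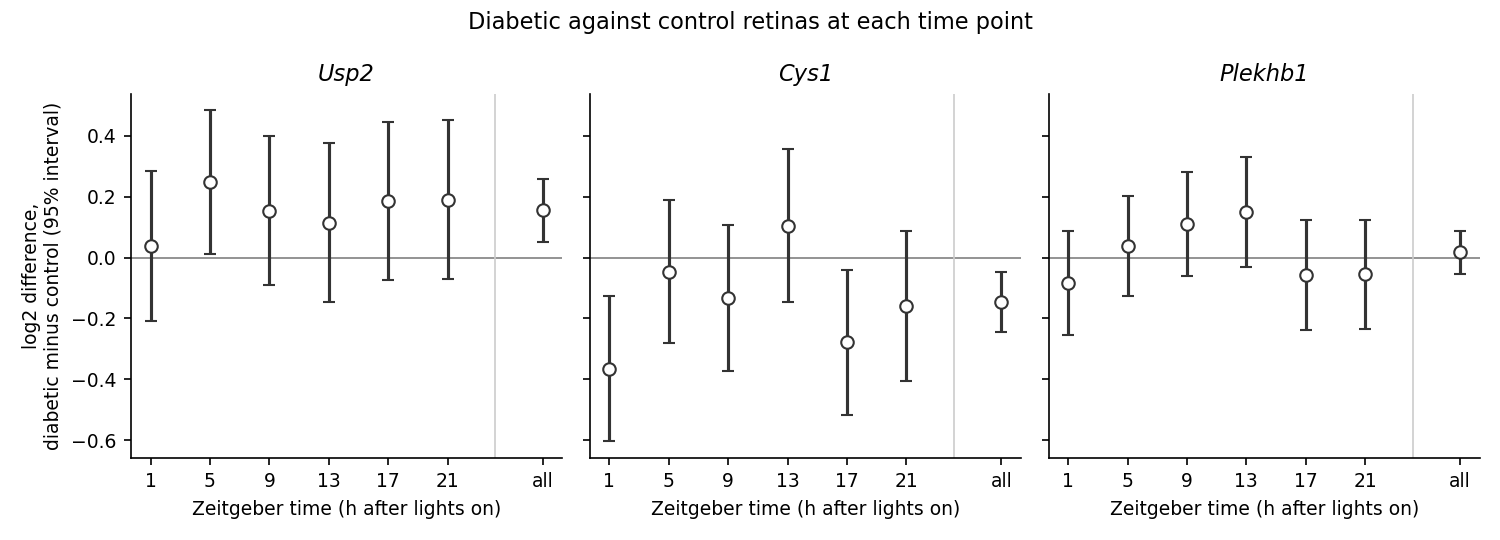
Difference of diabetic minus control retinas in Usp2, Cys1 and Plekhb1 (y axis, log2 difference in edgeR with 95% intervals) at each zeitgeber time and over all time points (x axis). Usp2 lies above 0 at 6 of 6 time points and Cys1 below 0 at 5 of 6, with intervals that reach across 0 at most of them, and no point passed an adjusted p of 0.05.

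The rhythm itself was compared by the genotype terms of the 24 h cosine, in which edgeR called 0 genes, with 657 at an unadjusted p under 0.05 and 0 by DESeq2. The unadjusted edgeR p was 0.924 for Usp2, 0.140 for Cys1 and 0.0848 for Plekhb1, with adjusted p = 1.00 for each. The acrophase in diabetic minus control retinas was -0.49 h for Usp2 (95% interval -4.36 to 3.38), -1.995 h for Cys1 (-4.05 to 0.062) and -0.96 h for Plekhb1 (-2.03 to 0.12). These intervals leave room for no shift as well as for peaks up to 4.36, 4.05 and 2.03 h earlier. The relative amplitude differed by 1.4 percentage points for Usp2 (-11.2 to 14.0), -0.97 for Cys1 (-12.5 to 10.5) and -4.58 for Plekhb1 (-12.5 to 3.32).

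Of the 15 core clock genes, 7 were called rhythmic in each genotype, and of 10 other clock-controlled genes 8, against 21.8% and 23.9% of all genes. Rorb, the ROR receptor of the retina, peaked at 18.4 h in control and 17.4 h in diabetic retinas, close to Plekhb1. Drd4, the dopamine receptor of photoreceptors, peaked at 18.3 h and 17.0 h, with relative amplitudes of 47.1% and 44.7%, above those of Plekhb1. Dbp, a D-box activator, peaked at 10.3 h and 9.60 h, and the clock repressor Ciart at 9.18 h and 9.61 h, both before Usp2. Adcy1, an adenylyl cyclase, peaked at 10.3 h and 9.92 h, and Nr2e3, a nuclear receptor of rods, after lights on at 3.40 h and 2.47 h.

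Around Usp2, 7 genes for its known substrates and 46 other ubiquitin-specific proteases were listed. Of the substrates, Arntl and Ccnd1 (28.6% of the 7) were rhythmic in control and Ccnd1 (14.3%) in diabetic retinas, against 21.8% and 23.9% of all genes. At ZT17 against ZT5, 2 of the 7 (28.6%, Ccnd1 and Cry1) were called higher in control and Ccnd1 (14.3%) in diabetic retinas, with none lower, where 7.42% and 3.63% of all genes were called higher. Ccnd1, which encodes cyclin D1, was higher at ZT17 than at ZT5 by 0.66 ± 0.13 on the log2 scale in control (SE, edgeR adjusted p = 0.000217) and by 0.58 ± 0.14 in diabetic retinas (adjusted p = 0.00432). The clock repressor Cry1 was higher by 0.26 ± 0.074 in control retinas (SE, edgeR adjusted p = 0.0150), and its difference in diabetic retinas was 0.25 ± 0.081 (adjusted p = 0.0515). Over all time points Cry1 was also the 1 substrate called higher in diabetic than in control retinas, by 0.12 ± 0.032 (edgeR adjusted p = 0.0247). Of the 44 proteases tested, rhythm was called for 7 (15.9%) in control and 8 (18.2%) in diabetic retinas. Usp36 peaked at 6.19 h and 6.70 h and Usp43, at a mean of only 5.40 and 5.39 normalized counts, at 6.80 h and 4.63 h, both before Usp2. Over all time points Usp10, Usp3 and Usp33 were higher in diabetic retinas, by 0.097, 0.089 and 0.12 on the log2 scale (edgeR adjusted p = 0.0337, 0.0415 and 0.0345), with none of the 44 called lower. These 3 are 6.82% of the 44, where 2.40% of all genes were called higher. The median of the 44 was 0.017 against 0.0018 over all genes.

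Around Cys1, 13 genes for ciliary carriers and cystic disease were listed, and rhythm was called for 4 (30.8%) in control and 3 (23.1%) in diabetic retinas, near the 21.8% and 23.9% of all genes. At ZT17 against ZT5 none was called higher, and 3 were called lower in control and 1 in diabetic retinas, where 7.66% and 3.73% of all genes were. The median difference was -0.11 in control and -0.099 in diabetic retinas, against -0.028 and -0.015 over all genes. Ift88 fell in both genotypes and Arl13b, an exchange factor of the GTPase Arl3, in control retinas. Ift88, a subunit of the intraflagellar transport train, changed by -0.30 ± 0.086 in control (SE, edgeR adjusted p = 0.0135) and -0.42 ± 0.095 in diabetic retinas (adjusted p = 0.00271), opposite in sign to Cys1.

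Around Plekhb1, 10 genes of rhodopsin transport were listed, with its paralog Plekhb2 (evectin 2) among them. In both genotypes 4 were rhythmic, Asap1, Plekhb2, Rab3ip and Stx3, or 40% of the list against 21.8% and 23.9% of all genes. The 4 had an adjusted permutation p under 0.05 in both, as did 8.25% and 9.78% of all genes in control and diabetic retinas. Plekhb2 peaked at 19.2 h in control and 18.4 h in diabetic retinas, close to Plekhb1, with a relative amplitude of 7.92% and 8.10%. Asap1, a GTPase-activating protein of Arf, peaked at 19.5 h and 19.4 h, Rab3ip, the exchange factor of Rab8, at 18.4 h and 17.0 h, and the photoreceptor syntaxin Stx3 at 20.6 h and 20.9 h. At ZT17 against ZT5, where 7.42% and 3.63% of all genes were called higher, 4 of the 10 were called higher in control retinas, with Plekhb2 at 0.17 ± 0.054 (SE, edgeR adjusted p = 0.0238), and 3 in diabetic retinas, with Plekhb2 at 0.20 ± 0.060 (adjusted p = 0.0322). No gene of the list was called lower in either genotype, and the median was 0.12 and 0.071, against -0.028 and -0.015 over all genes. Across the 12 listed genes with an adjusted permutation p under 0.05 in both genotypes, 9 (75%) peaked earlier in diabetic retinas, with a median difference of -0.77 h. The same held for 594 of all 811 such genes (73.2%), with a median of -0.63 h and quartiles of -1.20 h and 0.031 h, so the listed genes were near the background.

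**Figure D5:**
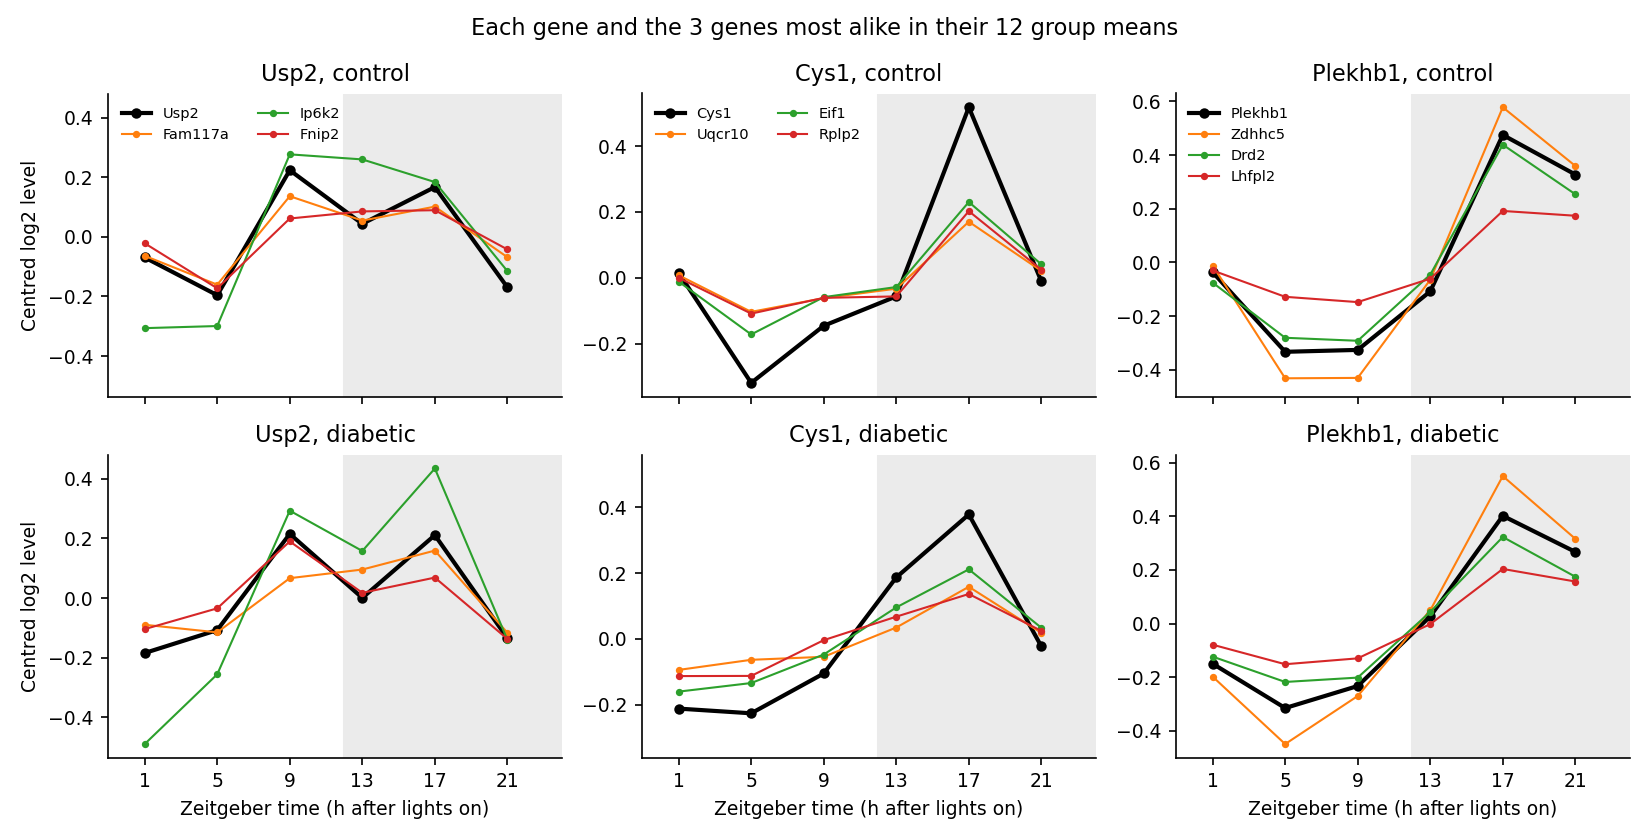
Group means of log2(normalized count + 1), centred within each genotype (y axis), against zeitgeber time (x axis) for Usp2, Cys1 and Plekhb1 and the 3 genes most like each, in control and diabetic retinas. The genes were chosen for their likeness, so that the shared shapes are fixed by that choice, with means highest at ZT17 for Plekhb1 and Cys1 and the genes drawn with them.

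The genes most like each of the 3 were sought by Pearson r over the 12 group means of log2(normalized count + 1), centred within genotype, among 11232 genes with a mean of at least 100. Means of 1 group share their libraries and depth, and r is given as a description. Plekhb1 was closest to Zdhhc5 (r = 0.995), a palmitoyl transferase, to the dopamine receptor gene Drd2 (0.991) and to Lhfpl2 (0.990). Cys1 was closest to Uqcr10 (r = 0.975), a subunit of respiratory complex III, to the initiation factor gene Eif1 (0.975), to the ribosomal protein gene Rplp2 (0.970) and to Igf2 (0.969), which encodes a growth factor. Usp2 was closest to Fam117a (r = 0.916), Ip6k2 (0.895), an inositol hexakisphosphate kinase, Fnip2 (0.884), a folliculin-binding protein, and Pbdc1 (0.882). Of these genes, Fam117a, Pbdc1, Uqcr10, Rplp2 and Igf2 were called rhythmic in neither genotype, and the others named were called in both. Between members r was 0.836 for Cys1 and Plekhb1, 0.522 for Usp2 and Cys1 and 0.136 for Usp2 and Plekhb1. None of the 3 was thus among the 4 genes most like another.

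Reads of Usp2 may include those of genes on the other strand. Its locus overlaps the protein-coding gene Gm49380 over 28607 bases and the antisense gene Gm39325 over 4448 bases, both on the minus strand and not analysed here. The strand setting of the read counting is not given in the sources used here.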

How the data were processed

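Retinal RNA was depleted of ribosomal RNA and sequenced. The authors deposited raw read counts per gene, made with STAR 2.7.4a and HTSeq 0.11.1 on GRCm38.p5, per the labels and the study's methods. Every library had its own column, and groups came from the labels. The members and lists were chosen with earlier results of these data known. Named genes were the 3 members, listed genes rhythmic in both genotypes with an adjusted p under 0.05 in both (at most 6 a list) and the 4 genes most like each member. Arntl, Ccnd1, Cry1, Arl13b, Ift88, Usp10, Usp3 and Usp33 were named after their values were seen. Some genes that met these rules are not reported here.

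Counts were divided by size factors made as in DESeq2. JTK_CYCLE was rebuilt with 30 waveforms and 1000000 shuffled series and run on genes with a median above 4 in a genotype. A 24 h cosine was fitted by least squares. Contrasts used the quasi-likelihood test of edgeR 4.0.16 (R 4.3.3) with TMM, 1 group for each genotype and time point and Benjamini-Hochberg adjustment over 19120 genes. The fits were tested on simulated data. Alternatives included DESeq2 1.42.0, other scaling and filters, libraries and time points left out and a replicate block. The GC and length correction and the removal of the lens and ZT9 libraries were chosen after seeing the data. Among 113 pairs of replicates the lowest chi-square per degree of freedom was 1.86, so none was counted as 1 sample. The p-values measure the spread between these samples. Depth was 7773117 to 22147398 reads, and counting precision is lowest for Cys1. Gene spans come from Gencode M21 and promoter sequence from RefSeq on GRCm38.p6.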

Additional observations from a re-analysis of the deposited data

Results flagged for a closer look

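Among the 36 groups of libraries tested over the 3 genes, 4 held a library far from the others of its group, measured by its gap to the nearest library against the range of the group. Chance alone gives about 1 such library in 20 groups. In Usp2, diabetic ZT5 replicate 4 was the highest of 5 libraries at 3304 normalized counts, and the same library was the highest of 5 in Plekhb1 at 10459. In Cys1, control ZT17 replicate 2 was the lowest of 5 at 230.5 normalized counts, and diabetic ZT21 replicate 3 was the highest of 5 at 210.7. Without diabetic ZT5 replicate 4 the midnight against midday difference of Usp2 in diabetic retinas was 0.41 on the log2 scale (edgeR adjusted p = 0.0458), against 0.31 with it.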

How the results depend on the processing

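Over 78 results of the 3 genes and 492 alternative values without the fits that left out 1 library, 476 kept their direction and their side of the threshold, and in the 16 others the cause was not tested. Without the 4 ZT9 libraries the Usp2 change from ZT9 to ZT13 turned to 0.0094 in control and 0.053 in diabetic retinas, the diabetic minus control difference of Cys1 at ZT9 turned to 0.0076, and the Usp2 acrophase moved to 14.98 h and 14.7 h. Without ZT5 the permutation p of Usp2 was 0.0519 in control retinas, without ZT1 and without ZT17 it was 0.0962 and 0.0517 in diabetic retinas, and without ZT17 that of Cys1 was 0.0816 in control retinas. The edgeR cosine of Usp2 gained its call in control retinas without the 4 ZT9 libraries (adjusted p = 0.0387) and in diabetic retinas by DESeq2 (0.0413). DESeq2 changed no other call of the 3 genes, and other size factors and filters, the lens libraries left out and the GC and length correction none, but the adjusted permutation p of Cys1 in control retinas was 0.0509 with no filter.

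The replicate numbers were not taken to pair the samples, since only 15 of 26 same-numbered pairs, not all, had a correlation of deviations over 0.1 (median 0.113, -0.201 to 0.547). The median was positive, so this rule cannot exclude that some same-numbered libraries deviated together. With the replicate number as a block, calls were gained by Plekhb1 from ZT1 to ZT5 in control retinas (-0.29, edgeR adjusted p = 0.0124), by Usp2 from ZT5 to ZT9 in control retinas (0.45, edgeR adjusted p = 0.0405), by Usp2 between genotypes over all time points (0.14, edgeR adjusted p = 0.0462) and by the cosine of Usp2 in control and diabetic retinas (edgeR adjusted p = 0.0399 and 0.0392). The block changed no other call of the 3 genes.

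With 1 library left out, the log2 difference ranged from 0.277 to 0.424 for Usp2 at midnight against midday in control and 0.251 to 0.409 in diabetic retinas, from -0.464 to -0.272 for Plekhb1 from ZT21 to ZT1 in control retinas and 0.339 to 0.417 from ZT13 to ZT17 in diabetic retinas. Between genotypes it ranged from 0.134 to 0.175 for Usp2 and -0.162 to -0.124 for Cys1 over all time points, with calls gained. At single time points it changed sign for Usp2 at ZT1 (-0.0145 to 0.0869), Cys1 at ZT5 (-0.0895 to 0.0061) and ZT9 (-0.226 to 0.0028), and Plekhb1 at ZT5 (-0.0261 to 0.0632) and ZT21 (-0.133 to 0.0560). The edgeR adjusted p of the diabetic Usp2 cosine ranged from 0.0190 to 0.101, under 0.05 in 17 of 58 fits, in control from 0.0512 to 0.138. No rhythm call of the 3 genes was lost in this way.

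Counts over all genes moved by over 1.5 times as follows. A fold of time point means in place of libraries gave 2529 rhythmic genes in control (4169 by the rule used) and 2712 in diabetic retinas (4567). Genotypes over all time points gave 888 genes, 533 with no filter on low counts and 572 with 1 group per genotype. With the block, ZT13 to ZT17 gave 1487 genes in control (635 without) and 629 in diabetic retinas (393), ZT1 to ZT5 in control 266 (154), ZT5 to ZT9 in control 29 (16), ZT9 to ZT13 37 (24) and 69 (33), and genotypes 10 (4) at ZT5, 2 (1) at ZT9 and 60 (32) at ZT17. With no filter the same counts in control were 90 for ZT1 to ZT5, 10 for ZT5 to ZT9 and 375 for ZT13 to ZT17, and in diabetic retinas 1 (4) for ZT1 to ZT5, 189 for ZT13 to ZT17, 4 (2) for ZT17 to ZT21 and 312 (533) for ZT21 to ZT1, with 1 (2), 3 (1) and 1 (0) between genotypes at ZT1, ZT9 and ZT21 and 3 (0) for the difference of rhythm. DESeq2 gave 39 and 65 for ZT9 to ZT13, and 6, 24, 4, 1, 83 and 2 between genotypes from ZT1 to ZT21 in order. Without the lens libraries control retinas gave 69 for ZT1 to ZT5 and 89 (143) for ZT21 to ZT1, diabetic retinas 2 for ZT1 to ZT5, and genotypes 4 at ZT1. Without the 4 ZT9 libraries ZT5 to ZT9 gave 4 in control, ZT9 to ZT13 6 and 7, genotypes 9 at ZT5, 0 at ZT9 and 59 at ZT17, and the 24 h cosine 3633 (2337) in control retinas. The 12 h cosine gave 8 genes in control retinas with no filter and without the ZT9 libraries and 11 by DESeq2 (4 in all), and 48 in diabetic retinas without the ZT9 libraries (27). With 1 library left out control counts ranged from 40 to 176 for ZT1 to ZT5, 4 to 18 for ZT5 to ZT9, 11 to 29 for ZT9 to ZT13, 188 to 1511 for ZT13 to ZT17, 66 to 149 for ZT21 to ZT1 and 1373 to 3718 (2884) for ZT5 to ZT17. Diabetic counts ranged in that order from 0 to 5, 10 to 35 (31), 6 to 50, 125 to 620, 288 to 638 and 882 to 1736 (1407), and from 1 to 2 for ZT17 to ZT21. Genotypes gave 3 to 96 at ZT17 and 0 to 8 at other time points, and the 12 h cosine 0 to 9 in control and 3 to 32 in diabetic retinas. Depth limits Cys1 most, with 97 to 372 reads a library.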
